A study of Mus musculus with 6 samples.

Results

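Expression of 34 cell cycle and DNA replication genes was examined in liver of 6 house mice by RNA-Seq. The genes were a list fixed by name, from the G1 cyclins to the spindle checkpoint, among 47233 gene names used and 18620 tested. All 34 had an entry in every mouse, and Kif11 was listed again on an alternate sequence in 5 of the mice with the same value. The laboratory group was 3 male C57BL/6 mice, an inbred strain, and the wild group was 3 wild-caught mice, of which wild mouse 1 was male and wild mice 2 and 3 were female. The study describes the laboratory mice as bought from a breeder and the wild mice as trapped adults kept in housing for some months. Wild mice 1 and 2 were trapped at the same site and wild mouse 3 at another. The laboratory specimens had been archived longer than the wild ones when their fixed tissue was sampled. Strain, origin, husbandry, sex and possibly age and time of collection therefore differed together and cannot be told apart. RNA came from frozen, unfixed liver, 1 library per mouse. The deposited values are FPKM, fragments mapped to a gene per unit of transcript length and of library size, and zFPKM, which expresses log2 FPKM in SDs from the mode of all genes in the same liver.

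Cell division uses these genes in a set order. Cyclin D and cyclin E with their kinases release E2F factors from the retinoblastoma protein, E2F factors switch on the genes of DNA replication, and the MCM helicase is loaded on origins before the polymerase clamp PCNA is placed on DNA. The mitotic cyclins, their kinase CDK1 and the spindle genes are switched on later, by complexes that act with B-MYB and FOXM1, and the anaphase-promoting complex ends mitosis. Adult liver is mostly made of resting hepatocytes that can re-enter the cycle after tissue loss, so transcripts of dividing cells are scarce in it. In bulk liver, fewer cells of a type and less RNA per cell cannot be told apart.

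The genes were expressed at low levels in all 6 livers. Of the 34, 20 stayed below 1 FPKM in every mouse and 5 were at 1 FPKM or more in every mouse (Tk1, Pcna, Ccnd1, Mcm7 and Tyms). The median of the 34 lay between 0.191 and 0.353 FPKM, at percentiles 27.9 to 32.7 of the genes tested. Tk1, thymidine kinase, was the highest in each mouse, at percentiles 88.2 to 90.8. No member was in the study's class of high expression (mean zFPKM above 2) in laboratory or in wild mice, against 2.36% of the genes tested in either group. In the class of low expression (mean zFPKM below -2) were 8 members (23.5%) in the laboratory mice and 5 (14.7%) in the wild mice, where 15.2% and 18.2% of the genes tested were. Foxm1, Bub1, Aurkb, Kif11, Ccnb1 and Cdc20 were listed at 0 in at least 1 mouse. Names with a marked failed estimate had been left out, except that Kif11 was not checked. A 0 can therefore still mean a failed estimate for Kif11 and in laboratory mouse 1, where failures are not marked.

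**Figure D1:**
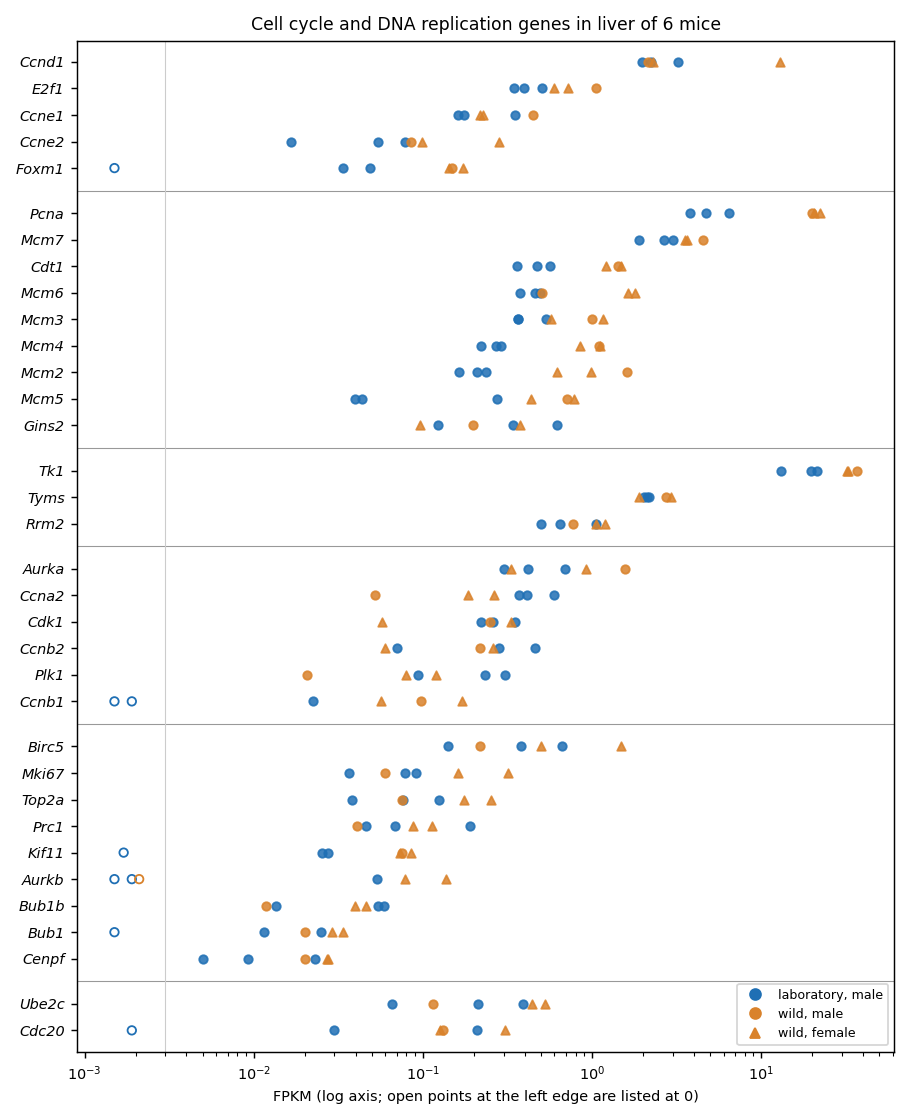
FPKM of the 34 genes (rows, grouped by role and ordered by mean FPKM) on a log axis, 1 point per mouse, with circles for males and triangles for females. Points of Pcna, Mcm2 and Mcm4 in laboratory mice lie left of all wild points, points of Ccna2 lie right of them, and open points at the left edge are listed at 0.

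Few reads stand behind most of these values. The deposited confidence bounds of 5 mice (laboratory mouse 1 has none) give the number of reads that would produce a bound of that width by counting alone, called effective reads here. Of the 34 genes, 13 had at least 10 effective reads in each of those 5 mice, 5 had at least 50, and 21 had under 10 in at least 1 of them. For 17 genes the lower bound reached 0 in at least 1 mouse. The 5 genes with at least 50 were the same 5 that stayed at 1 FPKM or more. Small differences in the weaker mitotic genes are therefore not detectable at this depth. The bounds also cover how reads are split between isoforms, so effective reads can fall under 1.

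**Figure D2:**
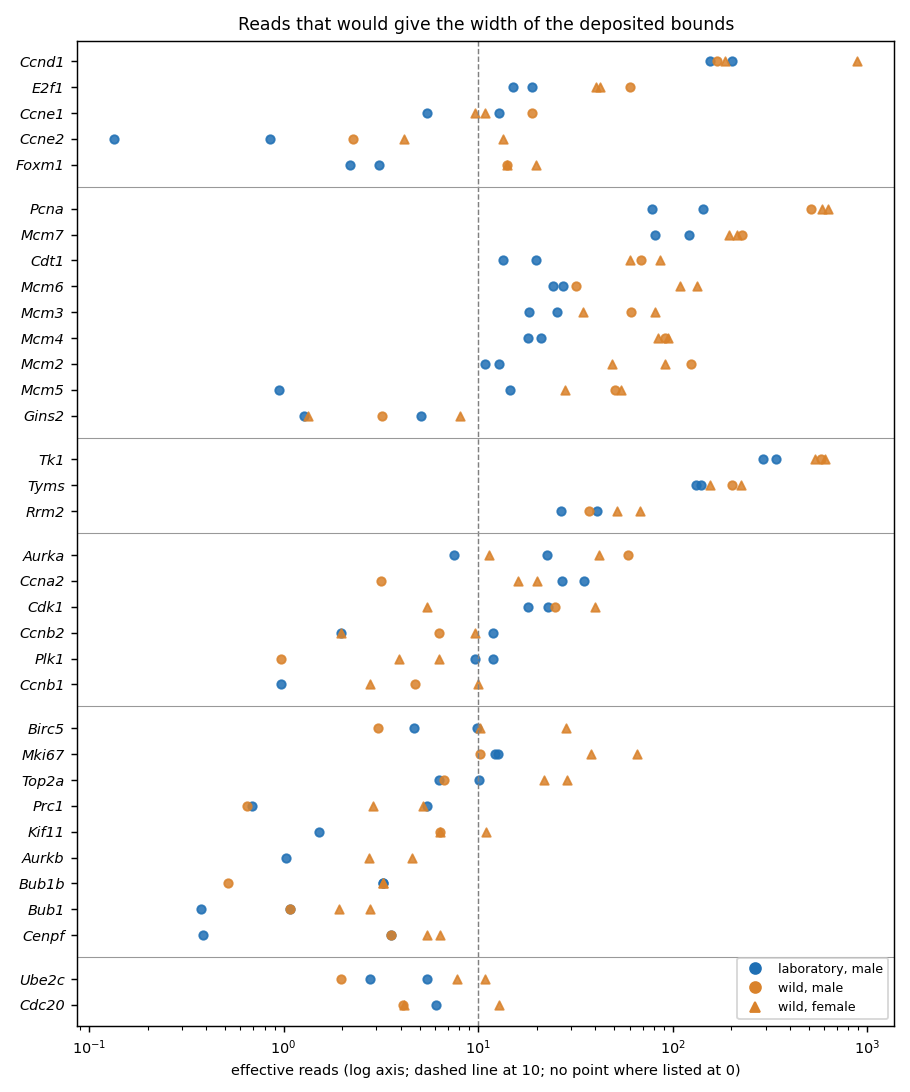
Effective reads of each gene on a log axis, 1 point per mouse for the 5 mice with bounds. Tk1, Pcna, Mcm7, Tyms and Ccnd1 lie right of 50 in every mouse, and most spindle and checkpoint genes lie left of the dashed line at 10.

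The scaling between mice bears on every comparison of levels. The 50 most abundant genes held 60.4 to 65.1% of the summed FPKM in the laboratory mice, against 33.1 to 35.3% in the wild mice, and the median tested gene had 0.828, 1.01 and 1.18 FPKM in the laboratory mice, against 1.56, 1.73 and 1.94 in the wild mice. The median difference of all genes, laboratory minus wild, was -0.47 on the scale of log2(FPKM + 0.1) and 0.00 in zFPKM. FPKM is therefore also given below as relative FPKM, the FPKM divided by that of the median tested gene of the same mouse, on which the median difference of all genes was 0.08 (log2 of relative FPKM + 0.1). Relative depth, with laboratory mouse 2 as 1, was 0.922 to 1.36 in the 5 mice with bounds. An FPKM of 0.1 corresponded to a zFPKM of -2.17 both for laboratory mouse 3 and for wild mouse 1, and to between -1.23 and -1.76 in the other 4 mice, so those 2 mice gave lower zFPKM to weak genes.

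The promoters of the replication genes and of the mitotic genes are described here by 3 short motifs. Windows from 250 bases before to 50 after the RefSeq start (GRCm38.p6) were found for 27 of the 34 genes, 29 windows in all, and were searched on either strand for CCAAT, for TTTGAA, the core of the cell cycle homology region (CHR) of late cell cycle promoters, and for the E2F letters TTCCCGC or TTGGCGC. An E2F match preceded by A also holds a CCAAT match on the other strand, and such overlaps were counted under both. TTTGAA stood in 12 of the 15 mitotic genes with a window and in 1 of the 7 replication genes (Mcm2), with 17.9% of all 32851 windows holding it. E2F letters stood in 5 of the 7 replication genes (Mcm3, Mcm5, Mcm6, Mcm7 and Cdt1) and in 3 of the 15 mitotic genes, with 6.81% of all windows. CCAAT stood in 6 of the 7 replication genes, in 14 of the 15 mitotic genes and in 21 of the 27 genes in all, with 37.4% of all windows. Counted by gene, as the members are, TTTGAA stood in 5466, E2F letters in 2105 and CCAAT in 11096 of all 27025 genes with a window. A match is only a string of letters, and binding was not measured here.

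The 4 stretches printed here had the most matches in their roles among genes whose RefSeq start lies at the outer edge of the gene. Ube2c had as many matches as Ccnb2 and was left out by alphabetical order. The choice of the 4 was made after the values were seen. Each is the 180 bases just upstream of the start, 5′ to 3′ on the strand of the gene, with matches to the 3 motifs in capitals, on whichever strand they read. Mcm6 (chr1:128359706-128359885, minus strand) and Mcm3 (chr1:20820313-20820492, minus strand) encode helicase subunits. Cdk1 (chr10:69352913-69353092, minus strand) and Ccnb2 (chr9:70421555-70421734, minus strand) encode the mitotic kinase and cyclin B2. In Mcm6, E2F letters and CCAAT alternate. In Cdk1, 2 matches to TTTGAA stand downstream of CCAAT letters.
Mcm6: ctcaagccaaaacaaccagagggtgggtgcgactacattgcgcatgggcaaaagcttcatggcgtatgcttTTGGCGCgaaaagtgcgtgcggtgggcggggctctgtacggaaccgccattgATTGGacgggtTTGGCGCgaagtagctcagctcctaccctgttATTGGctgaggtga
Mcm3: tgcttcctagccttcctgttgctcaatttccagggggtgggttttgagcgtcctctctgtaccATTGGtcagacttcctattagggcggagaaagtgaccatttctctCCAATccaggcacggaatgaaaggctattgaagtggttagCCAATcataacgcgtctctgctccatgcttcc
Cdk1: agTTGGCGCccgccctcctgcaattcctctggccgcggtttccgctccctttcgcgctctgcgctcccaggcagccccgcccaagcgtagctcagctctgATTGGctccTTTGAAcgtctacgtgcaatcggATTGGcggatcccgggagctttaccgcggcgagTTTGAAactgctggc
Ccnb2: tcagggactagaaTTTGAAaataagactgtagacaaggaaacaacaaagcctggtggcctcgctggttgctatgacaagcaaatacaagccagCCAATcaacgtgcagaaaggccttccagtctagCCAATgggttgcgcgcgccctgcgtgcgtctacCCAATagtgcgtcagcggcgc

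Of the 9 genes of helicase loading and DNA replication, 8 had lower FPKM in every laboratory mouse than in any wild mouse, where 43.7% of all tested genes did so. In relative FPKM 3 of the 9 still did (Pcna, Mcm2 and Mcm4), where 25.2% of all genes did. In zFPKM only Pcna did, where 14.1% of all genes did. None of the 9 passed the main test, limma on zFPKM with an adjusted p under 0.05, which 14.4% of all genes passed in either direction.

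Pcna (chr2:132249286-132253180), the sliding clamp that holds DNA polymerase on its template, had the smallest adjusted p of the 34. Its FPKM was 4.74, 6.49 and 3.81 in laboratory mice (5.01 ± 1.36, SD, n = 3), against 20.1, 20.6 and 22.2 in the wild mice (21.0 ± 1.10, SD, n = 3), from 78.0 to 625 effective reads. Mice also carry Pcna pseudogenes, and reads shared with them could not be told apart. Every wild value exceeded every laboratory value by a wide margin in FPKM and in relative FPKM. The wild mean was 4.19 times the laboratory mean in FPKM and 2.36 times in relative FPKM. On the zFPKM scale the margin was narrow, with a highest laboratory value of 0.624 (mouse 2) and a lowest wild value of 0.676 (mouse 1). The zFPKM difference, laboratory minus wild, was -0.49 ± 0.18 (SE), and the limma adjusted p of 0.0515 just missed the threshold. On log2 of relative FPKM + 0.1, a scale added after the data were seen, the difference was -1.28 ± 0.27 (SE, limma adjusted p = 0.00884). The difference was negative in all 23 alternative fits and passed in 10 of them.

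The MCM genes encode the 6 subunits of the replicative helicase ring. Mcm7 (chr5:138164583-138172111) was the highest, with FPKM of 2.68, 1.90 and 3.01 in the laboratory mice, against 4.53, 3.56 and 3.67 in the wild mice. The groups did not overlap in FPKM, but in relative FPKM they did, at 2.55 ± 0.679 in laboratory mice and 2.29 ± 0.545 in wild mice (SD, n = 3 each). The other 5 subunits had at most 0.532 FPKM in laboratory mice. Mcm4 (chr16:15623897-15637400) had FPKM of 0.222, 0.291 and 0.271 in the laboratory mice, against 1.11, 0.854 and 1.12 in the wild mice. These groups stayed apart in relative FPKM, at 0.262 ± 0.0300 and 0.594 ± 0.109 (SD, n = 3 each), and Mcm4 passed limma on that scale (-0.93 ± 0.25, SE, adjusted p = 0.0243) though not in zFPKM (-0.46 ± 0.39, SE, adjusted p = 0.508). Mcm2 (chr6:88883474-88898780) had FPKM of 0.237, 0.163 and 0.209 in the laboratory mice, against 1.61, 0.988 and 0.617 in the wild mice. Its groups were also apart in relative FPKM, and its limma adjusted p there was 0.0532.

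Mcm5 (chr8:75109468-75128439) had FPKM of 0.0438, 0.276 and 0.0399 in the laboratory mice, against 0.712, 0.782 and 0.437 in the wild mice. Laboratory mouse 2 stood above the other laboratory mice and overlapped the wild mice in relative FPKM. Mcm5 had 14.5 and 0.948 effective reads in laboratory mice 2 and 3, against 28.0 to 54.5 in the wild mice. Mcm3 (chr1:20802966-20820312) had FPKM of 0.363, 0.363 and 0.532 against 1.003, 1.17 and 0.571, so that wild mouse 3 lay close to laboratory mouse 3. Mcm6 (chr1:128331575-128359705) had FPKM of 0.378, 0.495 and 0.457 against 0.507, 1.80 and 1.64, so that the wild male lay beside the laboratory males and the wild females stood apart. The ratio between the groups varied from subunit to subunit: the wild mean in relative FPKM was 0.896 times the laboratory mean for Mcm7, 1.29 for Mcm3, 1.66 for Mcm6, 2.27 for Mcm4, 3.08 for Mcm2 and 3.16 for Mcm5. Whether these ratios differ from each other was not tested, and that of Mcm5 has a weak laboratory mean.

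Cdt1 (chr8:122568015-122573130), which brings the helicase to origins, had FPKM of 0.568, 0.473 and 0.360 in the laboratory mice, against 1.43, 1.49 and 1.21 in the wild mice. Its groups overlapped in relative FPKM, where the wild mean was 1.65 times the laboratory mean. Gins2 (chr8:120581266-120589075), a subunit of the complex that activates the helicase, was the lowest of the replication genes by the mean over all 6 mice and the only one with a higher laboratory than wild mean in FPKM. Its FPKM was 0.624, 0.341 and 0.123 in the laboratory mice, against 0.199, 0.375 and 0.0965 in the wild mice, with overlapping groups and 1.28 to 8.05 effective reads.

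The 3 genes of nucleotide supply included the most abundant member. Tk1 (chr11:117815519-117826087) had FPKM of 13.1, 21.3 and 19.8 in the laboratory mice, against 37.1, 32.3 and 32.6 in the wild mice. The groups did not overlap in FPKM but overlapped in relative FPKM, at 17.9 ± 2.81 and 19.8 ± 3.62 (SD, n = 3 each). Its zFPKM difference was -0.07 ± 0.15 (SE, limma adjusted p = 0.821). Tyms, thymidylate synthase, had FPKM of 2.02, 2.12 and 2.16 in the laboratory mice, against 2.73, 1.90 and 2.94 in the wild mice, and in relative FPKM every laboratory mouse lay above every wild mouse (2.12 ± 0.307 and 1.46 ± 0.331, SD, n = 3 each), as in 26.7% of all genes. Rrm2, the small subunit of ribonucleotide reductase, had FPKM of 0.4996, 0.643 and 1.06 against 0.772, 1.19 and 1.05, and overlapped on every scale.

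Among the G1 cyclins and regulators, Ccnd1 (chr7:144929931-144939937), cyclin D1, turned on a single mouse. Its FPKM was 1.97, 2.22 and 3.22 in laboratory mice, 2.13 in wild mouse 1, 13.0 in wild mouse 2 and 2.30 in wild mouse 3. Wild mouse 2 stood far above the other 5, from 888 effective reads against 155 to 202. E2f1, a transcription factor of S phase genes, had FPKM of 0.509, 0.396 and 0.348 in the laboratory mice, against 1.06, 0.594 and 0.721 in the wild mice. Ccne2, cyclin E2, had FPKM of 0.0781, 0.0166 and 0.0542 against 0.0848, 0.0991 and 0.281. For these 2 genes the groups were apart in FPKM, as 43.7% of all genes were with laboratory mice lower, and overlapped in relative FPKM. Ccne1, cyclin E1, had 0.161 to 0.349 FPKM in the laboratory mice, against 0.217 to 0.448 in the wild mice.

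Foxm1 (chr6:128362994-128375886), a transcription factor of mitotic genes, was the lowest of the G1 cyclins and regulators by the mean over all 6 mice. It was listed at 0 in laboratory mouse 1, at 0.0338 and 0.0489 FPKM in the other laboratory mice and at 0.148, 0.173 and 0.144 in wild mice. The wild mice lay above the laboratory mice in FPKM and in relative FPKM, as in 43.7% and 25.2% of all genes. Foxm1 had 2.19 and 3.08 effective reads in the laboratory mice with bounds, against 14.0 to 19.9 in the wild mice. It passed limma on log2 of relative FPKM + 0.1 (-0.62 ± 0.19, SE, adjusted p = 0.0390) and not in zFPKM (-0.89 ± 0.47, SE, adjusted p = 0.212).

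Of the 6 cyclins and kinases of mitotic entry, Ccna2 and Ccnb1 had groups apart in FPKM, in opposite directions, and the other 4 overlapped. Over all genes, 55.8% had groups apart in FPKM in either direction. Ccna2 (chr3:36564865-36573038), cyclin A2, was the only member with every laboratory mouse above every wild mouse in FPKM, where 12.1% of all genes were. Its FPKM was 0.370, 0.414 and 0.594 in the laboratory mice, against 0.0519, 0.184 and 0.264 in the wild mice. Wild mouse 1 was the lowest, with 3.15 effective reads against 16.1 to 35.1 in the other 4 mice with bounds. The laboratory mean was 2.75 times the wild mean in FPKM, and the groups stayed apart in zFPKM, where 14.2% of all genes lay this way round. The zFPKM difference was 0.85 ± 0.44 (SE, limma adjusted p = 0.199), and on log2 of relative FPKM + 0.1 it was 1.56 ± 0.28 (SE, limma adjusted p = 0.00500). The difference was positive in all 23 alternative fits and passed in 10 of them.

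Plk1 (chr7:122159435-122169884), a kinase of mitotic entry and spindle assembly, had FPKM of 0.0935, 0.234 and 0.305 in the laboratory mice, against 0.0205, 0.120 and 0.0795 in the wild mice. Laboratory mouse 1 lay below wild mouse 2 in FPKM, and in relative FPKM all laboratory mice lay above all wild mice. These values rest on 0.973 to 11.9 effective reads. Plk1 passed limma on log2 of relative FPKM + 0.1 (1.07 ± 0.27, SE, adjusted p = 0.0183) and not in zFPKM (0.85 ± 0.47, SE, adjusted p = 0.242). Cdk1 had FPKM of 0.351, 0.260 and 0.221 in the laboratory mice, against 0.248, 0.332 and 0.0577 in the wild mice, and Ccnb2 had 0.282, 0.0705 and 0.459 against 0.216, 0.258 and 0.0599. Both overlapped on every scale, with positive differences in every fit.

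Ccnb1 (chr13:100778739-100786486), cyclin B1, lay below the wild mice in every laboratory mouse, in FPKM and in relative FPKM, where 43.7% and 25.2% of all genes did. It was listed at 0 in laboratory mice 1 and 3, at 0.0223 FPKM in laboratory mouse 2 and at 0.0976, 0.171 and 0.0568 in wild mice, from at most 10.0 effective reads. Its limma adjusted p was 0.219 in zFPKM and 0.0524 on log2 of relative FPKM + 0.1. Aurka, a centrosome kinase and the highest of this role by the mean over all 6 mice, had FPKM of 0.417, 0.695 and 0.302 in the laboratory mice, against 1.56, 0.917 and 0.331 in the wild mice, with overlapping groups. The role thus held 4 genes with higher laboratory means in FPKM, by 1.30 to 2.87 times, and 2 genes with higher wild means.

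The 9 genes of chromosome structure, spindle and checkpoint were weak and mostly overlapped. Birc5, survivin, was the highest by the mean over all 6 mice, with FPKM of 0.142, 0.379 and 0.665 in the laboratory mice, against 0.217, 0.501 and 1.49 in the wild mice. Cenpf, a kinetochore protein, was the lowest by the same mean, at 0.00500 to 0.0230 FPKM in the laboratory mice, against 0.0202 to 0.0274 in the wild mice. Kif11 (chr19:37376382-37421863), a spindle motor, was the only one of the role with groups apart in FPKM, where 43.7% of all genes lay this way round. It was listed at 0 in laboratory mouse 2, at 0.0253 and 0.0274 FPKM in the other laboratory mice and at 0.0753, 0.0852 and 0.0730 in wild mice. Its limma adjusted p was 0.391 in zFPKM and 0.174 on log2 of relative FPKM + 0.1.

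Mki67, the Ki-67 protein that coats mitotic chromosomes and a common stain for dividing cells, had FPKM of 0.0365, 0.0782 and 0.0905 in the laboratory mice, against 0.0594, 0.160 and 0.319 in the wild mice. Top2a, the topoisomerase that untangles sister chromatids, had 0.0380, 0.0760 and 0.124 against 0.0750, 0.174 and 0.254. In either gene the wild male lay among the laboratory males and wild mouse 3 was the highest of the 6. Their zFPKM differences were -0.16 ± 0.47 and -0.12 ± 0.47 (SE), with limma adjusted p of 0.877 and 0.914. In relative FPKM, Mki67 and Mcm6 were the members with both females above all 4 males, where 10.1% of all genes were, and Tyms and Ccne1 were those with both females below all 4 males, where 16.7% of all genes were. Sex and origin cannot be told apart in these females. Prc1, Aurkb, Bub1 and Bub1b had at most 0.190, 0.136, 0.0336 and 0.0587 FPKM in any mouse.

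The partners of the anaphase-promoting complex, Ube2c and Cdc20, also overlapped. Ube2c, its ubiquitin-conjugating enzyme, had FPKM of 0.0652, 0.392 and 0.212 in the laboratory mice, against 0.114, 0.526 and 0.444 in the wild mice. Cdc20 (chr4:118432901-118437343), its activator, had 0.0298 and 0.209 FPKM in laboratory mice 1 and 2, was listed at 0 in laboratory mouse 3, and had 0.131, 0.306 and 0.127 in wild mice. In either gene the laboratory mice spread more widely than the group means differed.

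Over the 34 genes, none passed limma on zFPKM, where 1335 genes were higher and 1355 lower in laboratory mice among the 18620 tested. At an unadjusted p under 0.05 was 1 member (Pcna), where 25.7% of all genes were. The median zFPKM difference of the 34 was -0.08, against 0.00 over all genes. Without a scaling between mice, on log2(FPKM + 0.1), 9 members were lower in laboratory mice (Pcna, Mcm2, Mcm4, Mcm5, Cdt1, Tk1, Foxm1, Ccnb1 and Kif11) and 1 was higher (Ccna2), with 37.9% of all genes lower and 8.18% higher by the same rule. On log2 of relative FPKM + 0.1, 3 were lower (Pcna, Mcm4 and Foxm1) and 2 higher (Ccna2 and Plk1), with 17.9% and 19.0% of all genes. With the medians of log2(FPKM + 0.1) set equal, 2 were lower (Pcna and Mcm4) and 5 higher (Ccna2, Plk1, Prc1, Bub1 and Bub1b), with 18.6% and 28.7% of all genes. In that last scaling the shift between mice is added after the 0.1, so genes near 0 in both groups are moved by it, and Prc1, Bub1 and Bub1b had at most 0.190 FPKM. The share of members called was under that of all genes in each direction on relative FPKM. By exact permutation of 3 against 3, two-sided, 15 members reached the smallest p the design allows, 0.1, in FPKM, and 9 did in relative FPKM. These were the members with groups apart in either direction, as 55.8% of all genes were in FPKM and 51.9% in relative FPKM, and in zFPKM 2 members were apart (Pcna and Ccna2), as 28.3% of all genes were.

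**Figure D3:**
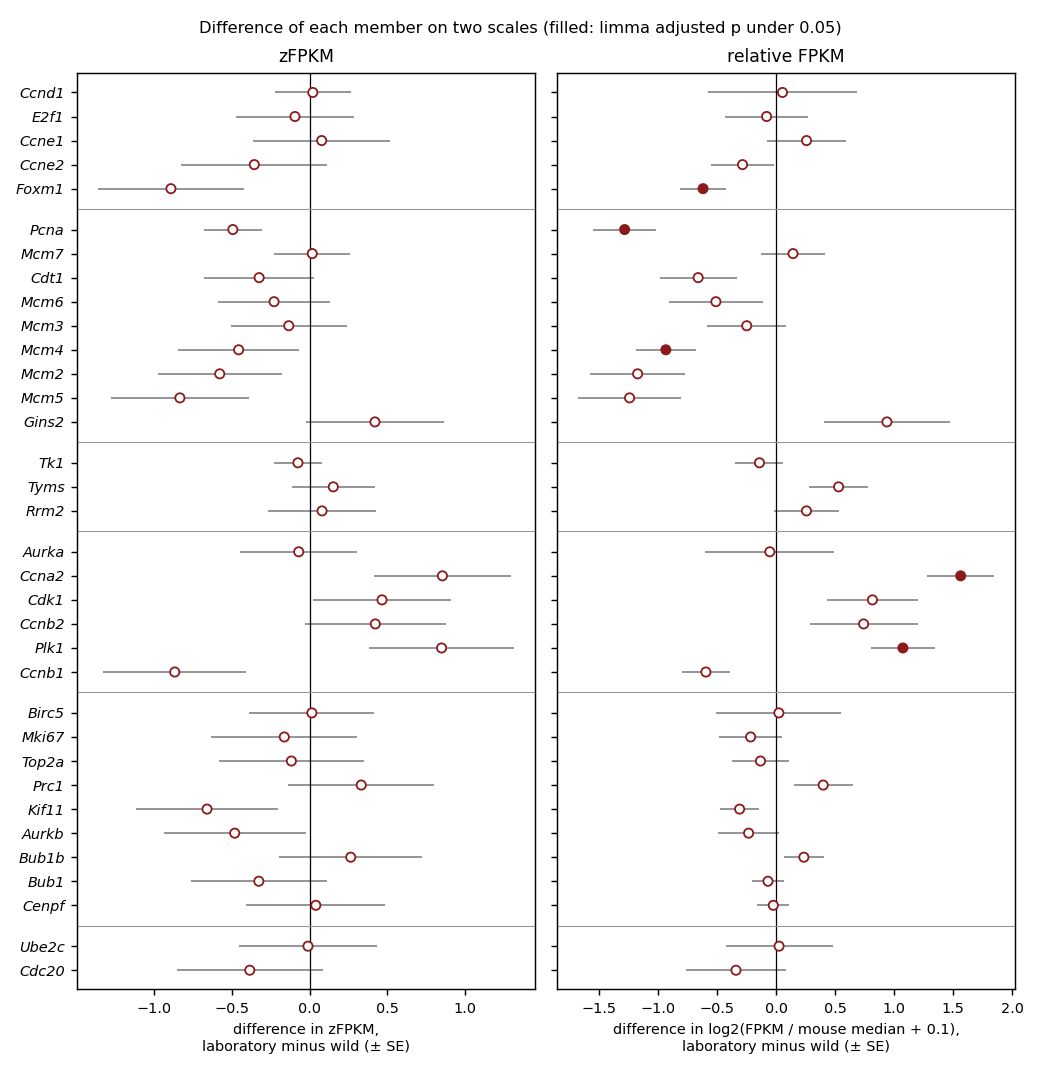
Difference of each gene, laboratory minus wild, with its SE, in zFPKM (left) and in log2 of relative FPKM + 0.1 (right), genes in the same order as in the plot of FPKM by mouse. No gene is filled on the left, and Foxm1, Pcna, Mcm4, Ccna2 and Plk1 (limma adjusted p under 0.05) are filled on the right.

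Ratios within a liver do not depend on any scaling between mice. The ratio of Pcna to Ccna2 FPKM was 12.8, 15.7 and 6.41 in the laboratory mice, against 388, 112 and 84.2 in the wild mice, so that the lowest wild ratio was above the highest laboratory ratio. This pair was chosen after its values were seen, and the ratio is given without a test. In FPKM, Pcna was lower and Ccna2 higher in every laboratory mouse than in any wild mouse. Their ratios could therefore only lie apart. The 388 of wild mouse 1 rests on 3.15 effective reads of Ccna2. The median FPKM of the 9 replication genes was 0.360 to 0.378 in the laboratory mice, against 1.11 to 1.17 in the wild mice, and that of the 17 mitotic genes was 0.0380 to 0.124 and 0.0750 to 0.171. The ratio of these medians was 9.94, 4.78 and 2.91 in the laboratory mice, against 14.8, 6.81 and 12.8 in the wild mice, and the groups overlapped.

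**Figure D4:**
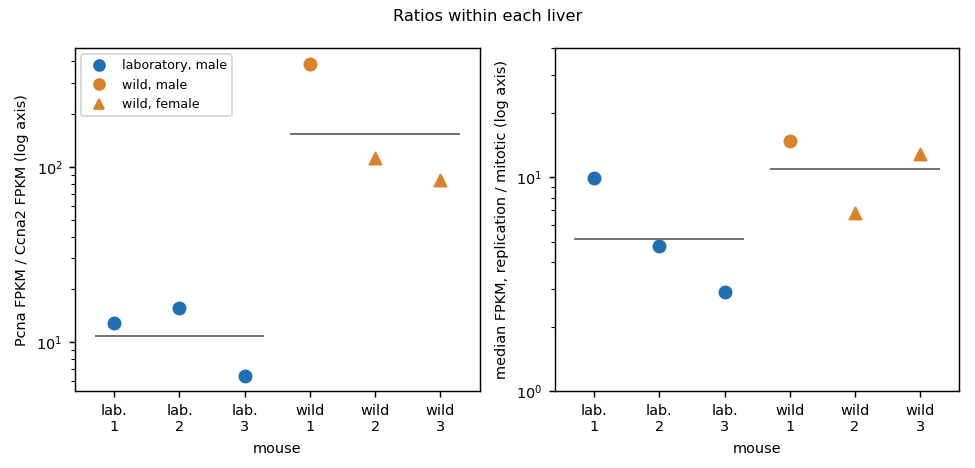
Left, the FPKM of Pcna over that of Ccna2, and right, the median FPKM of the 9 replication genes over that of the 17 mitotic genes, in each mouse on log axes, with lines at the geometric mean of each group. The left panel shows all wild mice (84.2 to 388) above all laboratory mice (6.41 to 15.7), and the right panel shows overlapping groups. The pair on the left was chosen after its values were seen, and its groups could only lie apart.

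The other genes of the pathway were taken from 4 wider lists of 119 genes, of which 113 were tested. In zFPKM, 2 passed as higher and 3 as lower in laboratory mice, and the median difference of the 113 was -0.03. Pttg1 (chr11:43420244-43427463), securin, which holds back the protease that parts sister chromatids, had FPKM of 39.0, 44.7 and 35.2 in the laboratory mice, against 2.10, 2.74 and 2.21 in the wild mice, a zFPKM difference of 1.66 ± 0.19 (SE, limma adjusted p = 1.14e-16). It was more abundant in laboratory mice than any of the 34 members. Mybl2, or B-MYB, had FPKM of 0.129, 0.173 and 0.335 in the laboratory mice, against 0.0216 and 0.0627 in wild mice 1 and 3, was listed at 0 in wild mouse 2, and differed by 1.44 ± 0.47 (SE, limma adjusted p = 0.02005).

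The 3 that were lower in laboratory mice were of 2 lists. Rpa1, the large subunit of the protein that coats single-stranded DNA, had FPKM of 0.860, 1.57 and 1.18 in the laboratory mice, against 9.91, 7.06 and 8.17 in the wild mice (-0.75 ± 0.24, SE, limma adjusted p = 0.0208). E2f6, a repressor of the E2F family, had 0.528, 0.866 and 1.40 against 6.19, 6.65 and 7.61 (-0.78 ± 0.26, SE, limma adjusted p = 0.0246). Ccnd3, cyclin D3, had 5.12, 6.84 and 4.50 against 24.4, 22.6 and 26.9 (-0.52 ± 0.18, SE, limma adjusted p = 0.0299). For all 5 genes, which were picked by their calls in these same mice, the groups were apart in FPKM, as 55.8% of all genes were.

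The list of CDK inhibitors and pocket proteins also held Lin, Btg and Ccng genes. By list, 1 of 39 tested replication genes, 1 of 41 mitosis genes, 3 of 17 other G1 genes and 0 of 16 genes of that list passed in zFPKM. At an unadjusted p under 0.05 were 3, 5, 4 and 4 of them. Over all genes 14.4% passed and 25.7% had an unadjusted p under 0.05. The most abundant gene of each list by the mean over all 6 mice did not pass: Rpa3 with 7.17 to 10.3 FPKM in the laboratory mice, against 12.1 to 14.6 in the wild mice, Cks2 with 13.8 to 22.5 and 19.2 to 32.8, Cdk4 with 13.0 to 15.7 and 20.1 to 22.6, and Btg1 with 4.07 to 7.35 and 18.8 to 31.2. On log2 of relative FPKM + 0.1, 13 of the 113 were higher and 20 lower in laboratory mice, where 19.0% and 17.9% of all genes were. Among the 39 replication genes 4 were higher and 9 lower on that scale. The counts were 5 and 3 among the 41 mitosis genes and 3 and 2 among the 17 other G1 genes. In the list of CDK inhibitors and pocket proteins, 1 of 16 was higher and 6 were lower.

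Markers of other cell types moved with the groups or with single mice, and their part in the values above was not tested. Hepatocyte markers summed to 28729 to 40634 FPKM over the 7 used in the laboratory mice, against 22148 to 24112 in the wild mice. The tissue label therefore held in every mouse. Of the 7, 3 were called higher and 2 lower in laboratory mice in zFPKM, where 14.4% of all genes were called. The 6 B and plasma cell markers summed to 4.16 to 5.71 FPKM in the laboratory mice, against 4.01, 2.88 and 22.4 in the wild mice, with 19.0 FPKM from Jchain in wild mouse 3. The 4 neutrophil markers tested of 8 included 2 called higher in laboratory mice (S100a8 and S100a9), and the sum over the 7 used was 7.15 to 13.6 FPKM in the laboratory mice, against 1.89 to 2.83 in the wild mice, with the precursor gene Elane listed at 0 in every laboratory mouse. Erythroid markers summed to 31.4 to 42.2 and 13.1 to 22.4 FPKM, and Hemgn and Rhag were listed at 0 in all 6 mice.

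The 7 Kupffer cell markers summed to 32.5 to 41.8 FPKM in the laboratory mice, against 12.8, 47.8 and 121 in the wild mice. Wild mouse 3 thus had the highest sum of the 6 mice and wild mouse 1 the lowest. None of the 7 was called. The sums of T and NK cell markers were 1.94 to 2.96 and 1.91 to 5.56 FPKM, of sinusoidal endothelial markers 18.2 to 28.8 and 15.4 to 52.0, of cholangiocyte markers 3.81 to 9.56 and 1.65 to 4.59, and of stellate cell markers 27.5 to 42.5 and 71.4 to 128, with 1 stellate marker called (Col1a1, higher in laboratory mice).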

How the data were processed

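RNA-Seq was made from liver of 3 laboratory and 3 wild mice, 1 library each. The authors aligned reads with kalign and calculated the deposited FPKM with the Tuxedo pipeline (GRCm38.p6 in the submitters' processing notes), and the deposited zFPKM is a score the authors made from each mouse's log2 FPKM. Kit versions and counter settings are not given in the sources used here. No read counts were used. Names listed once in every mouse were used (47256), less 24 with a marked failed estimate, with the chromosome copy of Kif11 added. Genes with zFPKM above -3 in at least 3 mice were tested, lower values being set to -3, with limma 3.58.1 in R 4.3.3 (lmFit, eBayes with trend, Benjamini-Hochberg over 18620 genes, adjusted p under 0.05). Single genes were also compared by exact permutation. The procedure was tested on simulated data. The fits of relative FPKM, of 1 mode and SD for all mice, and of 2 combined settings were chosen after seeing the data. The 34 genes and all lists were chosen with earlier results of these data known. The genes named were chosen by a rule: all members by role, the highest and lowest of each role and those with groups apart in full, and from the wider lists up to 4 called genes and the most abundant gene. Promoter windows came from RefSeq (GRCm38.p6). The labels give no culture or litter, so p-values measure the spread between these mice. Absolute depth is unknown, and effective reads, 4 × (FPKM / (upper bound - FPKM)) squared, cover 5 mice and hold counting error and the split of reads between isoforms. Calls of the B and plasma cell and the erythroid markers are not reported here.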

Additional observations from a re-analysis of the deposited data

How the results depend on the processing

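No paired analysis was possible because the groups are different animals and the labels give them no shared numbers. The 0 members called in zFPKM also came out with floors of -5 and -20, with both stricter filters, without a filter, without the trend and with each mouse left out. Other settings called 10 members (log2(FPKM + 0.1)), 10 (log2(FPKM + 1)), 7 (equal medians), 2 (zFPKM medians at 0), 7 (quantile normalization), 1 (sex as a covariate), 2 (without laboratory mouse 3 and wild mouse 1), and, chosen after seeing the data, 4 (equal medians with sex), 6 (equal medians without those 2 mice), 9 (1 mode and 1 SD for all mice) and 5 (relative FPKM). Over all genes the count of 2690 became, in the same order, 8590, 8243, 8803, 5272, 7283, 1374 and 5676, then 5280, 8543, 8536 and 6863, and it was 1196 with a floor of -20, 23 without a filter, 795 without the trend and 1420 to 2556 with a mouse left out. The 5 genes of the wider lists became, in the same order, 42, 44, 44, 28, 36, 1 and 21, then 21, 35, 40 and 33, and 3 with a floor of -5, 3 with -20, 0 without a filter, 2 without the trend and 1 to 6 with a mouse left out, 1 being without wild mouse 2. The median member difference of -0.08 became -0.62 on log2(FPKM + 0.1) and ranged with a mouse left out from -0.31 (without wild mouse 1) to 0.10 (without laboratory mouse 3). It turned to 0.12 with equal medians, 0.29 with sex and 0.35 with both, and was -0.35 with 1 mode and 1 SD. Bub1 reversed to 0.55 with equal medians (limma adjusted p = 0.0425). Members with groups apart were 15 in FPKM (of all genes, 55.8%), 9 in relative FPKM (51.9%) and 2 in zFPKM (28.3%). With low expression set below -1.5, 13 members in laboratory and 16 in wild mice were low (38.2% and 47.1%, where 24.3% and 27.3% of all genes were), so the order of the groups turned from that below -2. The sign of the difference was the same in every fit for 11 of the 34 members. The cause of these changes was not tested.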
